A study of Mus musculus with 3 samples.

Results

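The AP-1 and Egr immediate early genes are 10 genes for transcription factors: the Fos family members Fos, Fosb, Fosl1 and Fosl2, the Jun family members Jun, Junb and Jund, and the zinc finger factors Egr1, Egr2 and Egr3. They were taken by their symbol in the gene name column of the array, which holds 36870 gene names, and all 18 probes carrying one of the 10 symbols were used. RNA came from RAW264.7 cells, a mouse macrophage cell line with no engineered allele named in the labels. The macrophages received LPS, a cell wall component of Gram-negative bacteria that activates TLR4, for 3 h. They received it alone or after a treatment with LOC1 or with LOC3, which are strains of Lactiplantibacillus plantarum from tea leaves. LPS was therefore present in all 3 conditions, and each condition was measured on 1 array. The methods give an LPS dose of 50 ng/mL where the results give 100 ng/mL, and they give 24 h with lactobacilli where the design text gives 12 h. Deposited log2 ratios also set each array against unchallenged macrophages, whose own array was not analysed here. With 1 array per condition there is no replicate error, and no test or p-value can be given for a difference between conditions.

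Immediate early genes are switched on within minutes of a stimulus, without new protein synthesis. Downstream of TLR4, the MAP kinases ERK, JNK and p38 reach them through the factors SRF, ELK and CREB, and their transcripts are short-lived. Fos and Jun proteins pair through leucine zippers to form AP-1, which binds the AP-1 site and the related CRE. Egr proteins bind GC-rich sites through zinc fingers, and in macrophages both families are known for acting on cytokine, protease and differentiation genes.

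All 9 macrophage markers, among them Csf1r, Cd68 and Spi1, were well above background on each of the 3 arrays. Their summed signal, the background-subtracted brightness in arbitrary units and unscaled between arrays, was 517624 for LPS, 397442 for LOC1 and 432385 for LOC3. Its part in the differences below was not tested. The markers did not all move the same way. After scaling, the log2 difference of Csf1r from LPS was -0.89 with LOC1 and -0.70 with LOC3, and that of Cd68 was 0.30 and 0.27. The summed signal of 3 markers was 466 to 504 for T cells, 13.4 to 28.2 for epithelial cells, 72.5 to 84.3 for fibroblasts and 326 to 359 for neutrophils. The B cell marker Ms4a1 read 29.0 for LPS, 55.9 for LOC1 and 18.8 for LOC3, and was well above background on 2 of the 3 arrays. Of 3 markers each, 2 for T cells, 2 for fibroblasts and 1 for neutrophils were well above background on all 3 arrays. Cd79a, Krt8, Cdh1, Cd3g, Col3a1 and Ly6g were not well above background on any array. Between 47.8% and 51.9% of probes were well above background, no spot was saturated, and the arrays shared 1 slide and 1 scan. In RNA from a whole culture, fewer cells of a kind and less RNA per cell cannot be told apart.

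Of the 18 probes, 12 were well above background on all 3 arrays and 6 on none, and 9 of the 10 genes had at least 1 detected probe. Each probe was printed once, and none of these spots was marked as an outlier. A pair of errors applies to a difference between arrays. The scanner software's own error of a member's log2 difference ran from 0.20 to 0.34, and probes printed many times on each array gave an SD of the log2 difference of 0.061 for bright probes and 0.31 for dim ones. Each difference is given below with the scanner software's error, which is a technical error of 1 pair of spots and leaves out the spread between cultures. The levels were scaled by subtracting the log2 of each array's 75th percentile of signal, and signals of different probes are not compared with each other.

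The sequences below are shown because Fosl2 was the gene of the set furthest below the LPS array, and because it was read by 2 distant probes. On mm9 its brightest probe lies at chr5:32460076-32460135, from base 5726 of the transcript NM_008037. Its other probe lies at chr5:32455088-32455147, from base 738 of the same transcript, and 1 of its 3 reading frames holds no stop codon. The sequence of this second probe, of 60 bases, is printed 5′ to 3′ as in the array files, with no part in capitals.

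Fosl2 probe at base 738: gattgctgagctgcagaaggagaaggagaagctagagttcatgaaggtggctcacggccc

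The 250 bases before the transcription start of Fosl2 are set beside those of Fos and Jun, the founding AP-1 genes, which differed less from LPS. They come from RefSeq on GRCm38.p6, which holds a window for 7 of the 10 genes, and Egr1, Egr3 and Fosl1 are not among them. The Fosl2 window is chr5:32136222-32136471 on the plus strand, the Fos window is chr12:85473640-85473889 on the plus strand, and the Jun window is chr4:95052223-95052472 on the minus strand. Capitals mark matches on either strand to the AP-1 site TGACTCA, its Jun-type form TGACATCA, the CRE TGACGTCA, the CRE core TGACG, which is also part of the full CRE, the TATA motif TATAAA, the CArG box bound by SRF, and a site like that of NF-kB.

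Fosl2: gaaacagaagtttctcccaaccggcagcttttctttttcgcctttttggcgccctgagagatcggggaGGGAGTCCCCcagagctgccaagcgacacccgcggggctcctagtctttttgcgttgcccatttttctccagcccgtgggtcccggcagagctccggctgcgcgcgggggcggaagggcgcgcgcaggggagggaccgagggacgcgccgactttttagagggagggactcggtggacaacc
Fos: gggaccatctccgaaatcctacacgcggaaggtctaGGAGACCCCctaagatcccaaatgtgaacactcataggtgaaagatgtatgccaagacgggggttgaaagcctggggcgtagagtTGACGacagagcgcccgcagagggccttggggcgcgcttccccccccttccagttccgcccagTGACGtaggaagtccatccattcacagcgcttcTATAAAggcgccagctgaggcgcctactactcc
Jun: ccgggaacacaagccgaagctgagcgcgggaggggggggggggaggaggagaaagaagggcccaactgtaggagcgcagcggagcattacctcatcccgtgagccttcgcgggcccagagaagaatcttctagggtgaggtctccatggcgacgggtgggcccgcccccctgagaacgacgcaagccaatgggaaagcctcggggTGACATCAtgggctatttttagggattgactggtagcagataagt

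In the Fosl2 window the capitals are a pair of overlapping matches to the site like that of NF-kB, 182 to 173 bases before the start, a motif found in 7.91% of all 32851 RefSeq windows of this length. The Fos window held the CRE core at 129 to 125 and at 66 to 62 bases, a TATA motif at 33 to 28 bases and 1 site like that of NF-kB at 214 to 206 bases. The CRE core was found in 17.8% and the TATA motif in 12.4% of all windows. The Jun window held the Jun-type AP-1 site at 45 to 38 bases, which 2.93% of all windows held. The plain AP-1 site was in 4.46%, the full CRE in 1.55% and the CArG box in 1.47% of all windows, and none of these 3 was in the windows shown. A match is a description of letters and not evidence of binding.

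With LPS alone, 7 of the 10 genes were listed at least 2-fold apart from unchallenged macrophages in the deposited ratios, 6 higher and Egr3 lower. Of the 9 genes detected on the LPS array, the 6 that were higher compare with 11.4% of all genes detected there, and the 1 lower gene of 10 compares with 5.86% of all gene names. These ratios are listed by the authors only past 2-fold, so a gene without a listed value has no known ratio. The 3 deposited columns share the same unchallenged reference, whose level can be worked out from any of them.

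Egr1, a zinc finger activator and the founding Egr gene, had the highest deposited ratios. Its log2 ratio to unchallenged macrophages was 5.99 for LPS, 7.16 for LOC1 and 6.91 for LOC3, or 63.5-fold, 143-fold and 120-fold. The unchallenged signal these ratios imply was 37.6 on the scale of the LPS array, above the lowest signal well above background there, 16.3.
Egr2, a relative of Egr1 with a role in myeloid and nerve sheath cells, had log2 ratios of 2.57, 2.21 and 2.11 in the same order. It was above unchallenged cells on all 3 arrays, with the smaller ratios on the lactobacilli arrays.
Egr3 was listed by 1 of its 3 probes, with a log2 ratio of -2.19 for LPS, but its signal of 7.60 there was not well above background. Against an implied unchallenged signal of 34.6, LPS cells were at least 2.12-fold lower. The same bound was at least 2.16-fold for LOC1 and at least 1.58-fold for LOC3. Whether the unchallenged spot was itself well above background is not known here.

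In the Fos family, Fosl1, which encodes Fra-1, a Fos relative without the strong activation domain of Fos, had log2 ratios of 2.37 for LPS, 3.70 for LOC1 and 3.49 for LOC3. Its implied unchallenged signal was 17.1, close to the limit of 16.3, so the size of these ratios rests on a dim signal. Fos had a log2 ratio of 1.34 with LPS and 1.34 with LOC3, and its cell was blank for LOC1. Fosl2, which encodes Fra-2, had 1.34 with LPS and blank cells for both lactobacilli arrays. The blank cells can be rebuilt from the signals and the shared reference, and they came to 0.99 for Fos with LOC1, and to -0.042 for Fosl2 with LOC1 and 0.30 with LOC3. Fosl2 was thus 2.54-fold above unchallenged macrophages with LPS alone, 0.971-fold with LOC1 and 1.23-fold with LOC3.

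Among the Jun genes, Junb, whose product is often an AP-1 subunit of weaker activity than Jun, was 7.15-fold above unchallenged cells with LPS, 8.34-fold with LOC1 and 8.55-fold with LOC3 by its brightest probe. A further Junb probe, assigned to the transcript ENSMUST00000209372, was listed at log2 ratios of 1.77, 1.78 and 1.68, but its signals of 11.5 to 13.5 were not well above background, so no fold is given. Jun, Jund and Fosb had no listed ratio on any array.

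**Figure D1:**
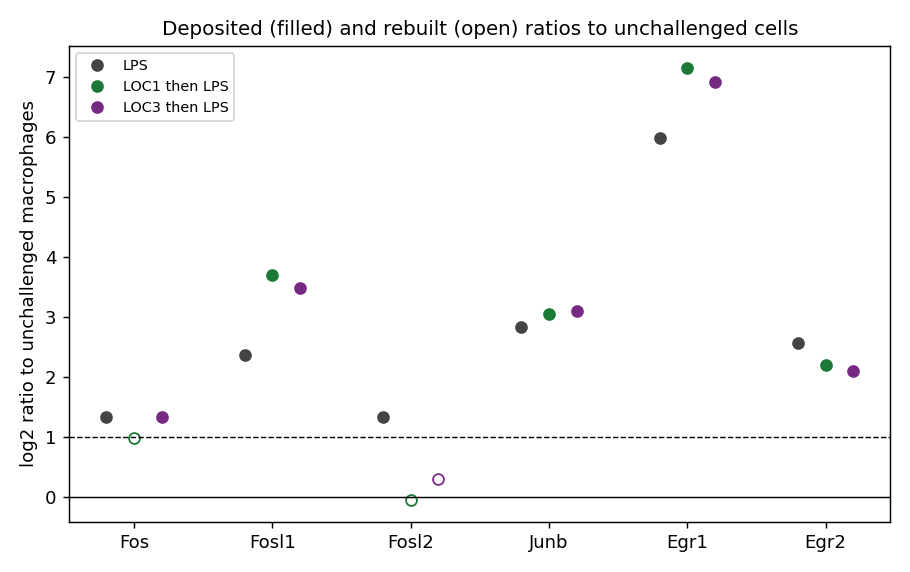
The vertical axis gives the log2 ratio to unchallenged macrophages for the 6 genes with a listed and detected probe, as 1 point per array; filled points were deposited and open points were rebuilt from the signals. The dashed line marks 2-fold. Egr1 lies between 5.99 and 7.16, and Fosl2 lies at 1.34 with LPS, -0.042 with LOC1 and 0.30 with LOC3.

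With LOC1 before LPS, Egr1 and Fosl1 were at least 2-fold higher than with LPS alone and Fosl2 was at least 2-fold lower, and the other 6 detected genes lay within 2-fold. The 2 higher genes of 9 compare with 2.49% of the 20035 genes tested, and the 1 lower gene with 3.81%. With LOC3 before LPS, 1 gene, Fosl1, was higher and 1, Fosl2, was lower past 2-fold, against 3.00% and 3.18% of 19817 genes tested. Egr1 was below 2-fold with LOC3. Under median scaling it was past 2-fold there, at 1.08 on the log2 scale, and Fosl2 was not, so the LOC3 calls were 2 higher and 0 lower. Both comparisons use the same LPS array. The median log2 difference of the 9 genes was -0.0059 for LOC1 and 0.21 for LOC3, beside 0.0013 and 0.015 over all genes tested. Scaling to each array's median in place of the 75th percentile moved every difference up, by 0.22 with LOC1 and 0.20 with LOC3, and values near 0 are read with that in mind. It turned the share of calls over all genes that were higher from 39.5% to 65.7% with LOC1 and from 48.6% to 70.5% with LOC3. Quantile normalization gave 50.7% with LOC1 and 58.1% with LOC3, and normexp gave 50.7% with LOC1 and 61.4% with LOC3.

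**Figure D2:**
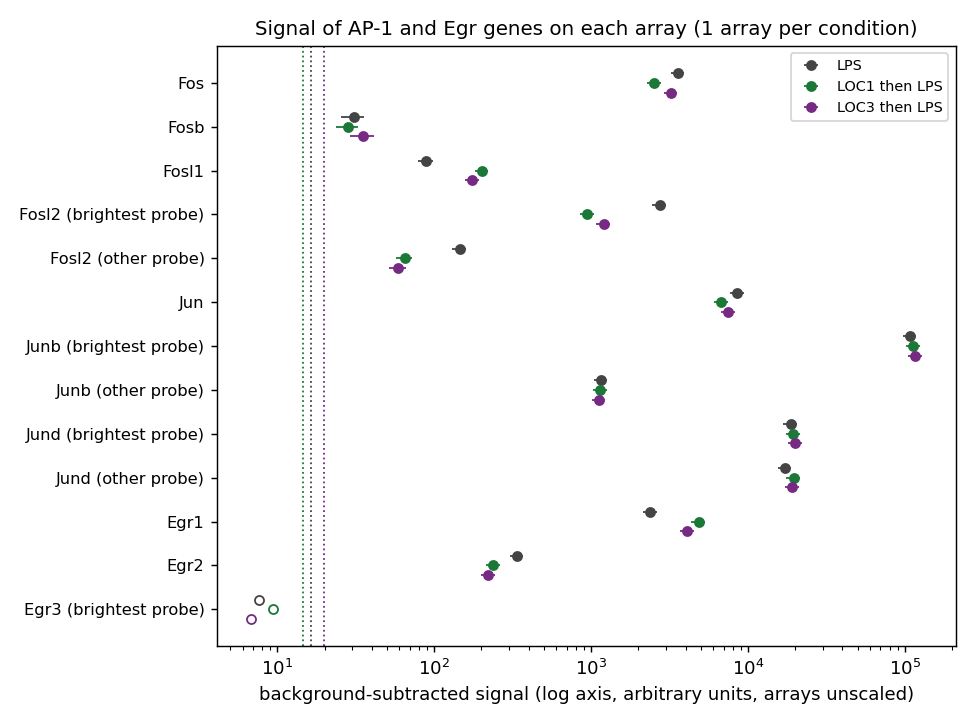
The horizontal axis gives the background-subtracted signal on a log axis for each detected probe, with bars for the scanner software's error, and open points for the brightest Egr3 probe, which was not well above background. Dotted lines mark the lowest signal well above background on each array, 16.3 with LPS, 14.5 with LOC1 and 19.8 with LOC3. Within its own probe, Egr1 lies at 2388 with LPS and at 4104 or more with lactobacilli, and the brightest Fosl2 probe lies at 2731 with LPS and at 1202 or less with lactobacilli.

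The Egr1 signal was 2388 for LPS, 4852 for LOC1 and 4104 for LOC3. Both lactobacilli arrays were above the LPS array. The log2 difference from LPS was 1.14 ± 0.20 (scanner error) with LOC1, or 2.20-fold, and 0.89 ± 0.20 with LOC3, or 1.85-fold. Of all genes tested, 384 lay further above LPS with LOC1 and 754 with LOC3. The Egr1 probe lies at chr18:35024395-35024454 on mm9, from base 2856 of the transcript NM_007913.
Egr2 lay on the other side of LPS, at signals of 336 for LPS, 237 for LOC1 and 222 for LOC3. The log2 difference from LPS came to -0.39 ± 0.21 for LOC1 and -0.50 ± 0.21 for LOC3. Both values were inside 2-fold, and the one with LOC3 was past 2 scanner errors. The probe is dim, and both values were within 2 of the SD of 0.31 from dim probes printed many times. The Egr2 probe lies at chr10:67004758-67004817 on mm9, from base 2786 of NM_010118.
Egr3 had signals of 7.60, 9.33 and 6.77 on the LPS, LOC1 and LOC3 arrays by its brightest probe. None of its 3 probes was well above background on any array, so no difference between the arrays is given.

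The Fosl1 signal was 88.9 for LPS, 201 for LOC1 and 174 for LOC3. It was the member furthest above LPS, by 1.29 ± 0.21 on the log2 scale with LOC1, or 2.45-fold, and by 1.08 ± 0.22 with LOC3, or 2.11-fold. Of all genes tested, 285 lay further above LPS with LOC1 and 529 with LOC3. The signal is dim, and with normexp background correction both differences were inside 2-fold, at 0.89 and 0.74. Its probe lies at chr19:5455496-5455555 on mm9, from base 1262 of NM_010235.

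Fosl2 was the member furthest below LPS, and its 2 probes, 1 of them printed above, lay on the same side. The brightest probe read 2731 for LPS, 944 for LOC1 and 1202 for LOC3. The other had 145, 64.8 and 58.9. On both probes the LPS array was the highest and the lactobacilli arrays were at a lower level. The log2 difference of the brightest probe was -1.42 ± 0.20 for LOC1 and -1.08 ± 0.20 for LOC3, so the LPS array was 2.67-fold and 2.12-fold higher. The other probe gave -1.05 ± 0.22 and -1.20 ± 0.24. Of all genes tested, 302 lay further below LPS with LOC1 and 516 with LOC3. Under median scaling the brightest probe was at -0.88 with LOC3, inside 2-fold.

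Fos, the prototype partner of Jun, read 3568 for LPS, 2529 for LOC1 and 3233 for LOC3. From LPS it differed by -0.38 ± 0.20 for LOC1 and -0.039 ± 0.20 for LOC3 on the log2 scale, and the second of these turned to 0.16 under median scaling. The 3 values lay within 2-fold of each other. The Fos probe lies at chr12:86818118-86818177 on mm9, from base 1991 of NM_010234.
Fosb, a Fos relative known in brain for lasting responses, was dim on all arrays, with signals of 30.6, 28.2 and 35.1 on the LPS, LOC1 and LOC3 arrays. Its difference was -0.0059 ± 0.33 with LOC1 and 0.30 ± 0.34 with LOC3, both within the scanner error. The second Fosb probe was undetected on each array.

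Jun, the AP-1 subunit that JNK phosphorylates, read 8552 for LPS, 6746 for LOC1 and 7466 for LOC3. It differed from LPS by -0.23 ± 0.20 for LOC1 and -0.092 ± 0.20 for LOC3 on the log2 scale, the second of which turned to 0.10 under median scaling. Its probe lies at chr4:94716928-94716987 on mm9, from base 1926 of NM_010591.
Junb had signals of 107892, 113664 and 116994 by its brightest probe and of 1157, 1144 and 1122 by another on the same transcript, in the order LPS, LOC1 and LOC3. The log2 differences were 0.19 ± 0.20 and 0.22 ± 0.20 for the brightest probe, and 0.097 and 0.059 for the other. The arrays thus lay close together by both probes. The 2 remaining Junb probes, assigned to other transcripts, were not well above background.
Jund, a Jun family member that most resting cells make, had signals of 18702, 19437 and 20072 by its brightest probe and of 17170, 19573 and 19177 by the other. Its differences from LPS ran from 0.17 to 0.30 over both probes and both strains, each within 2 scanner errors of 0.

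**Figure D3:**
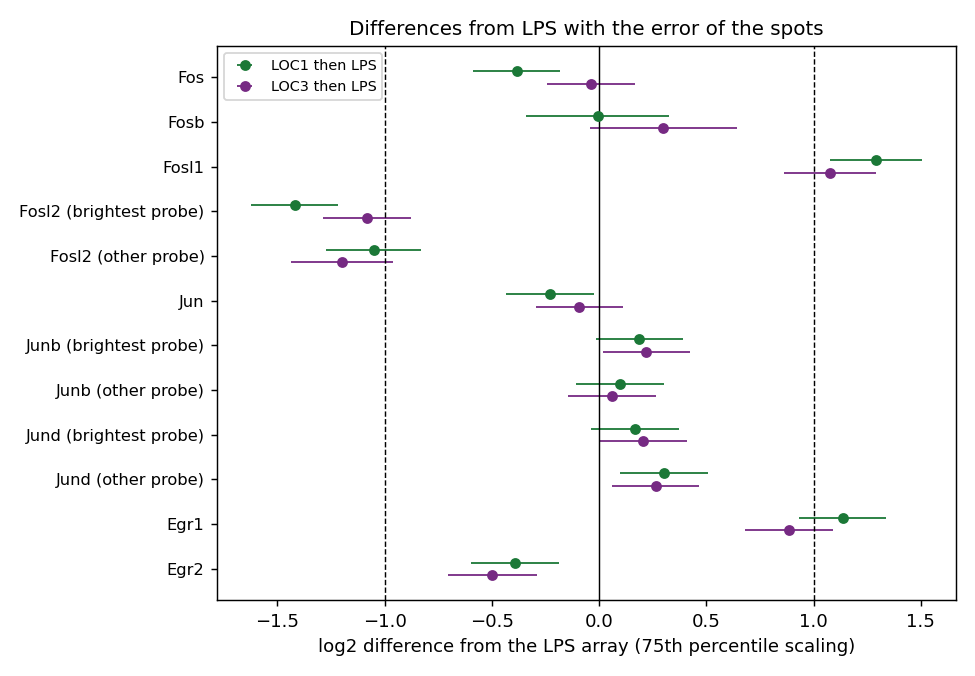
The horizontal axis gives the log2 difference of LOC1 or LOC3 from the LPS array for the 12 detected probes, with bars for the scanner software's error of each pair of spots. Dashed lines mark 2-fold. Fosl1 lies at 1.29 and 1.08, Egr1 at 1.14 and 0.89, and both Fosl2 probes lie between -1.05 and -1.42.

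Between the strains, no gene of the set differed by 2-fold on the arrays of LOC1 and LOC3, where 0.799% of 19403 genes tested were higher with LOC1 and 1.87% were lower. The log2 difference of LOC1 from LOC3 ran from -0.35 for Fos to 0.25 for Egr1. Fosl2 was at -0.34 by the brightest probe and at 0.15 by the other, so its probes differed in sign. None of the 12 probes reached 2 scanner errors in this comparison, whereas 4 did between LOC1 and LPS and 5 between LOC3 and LPS. The SD of probes printed many times is smaller, and by it 4 of the 8 bright probes, those of Fos, Fosl2, Jun and Egr1, lay past 2 SD between the strains, beside 7 between LOC1 and LPS and 5 between LOC3 and LPS. With 1 array each, this does not show that the strains act alike.

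Other genes of the pathway were described by lists, which were chosen with earlier results of these data known. Of 12 dimer partners of AP-1, all on the array and tested, none was past 2-fold with either strain, and under median scaling 1 was higher with LOC1. Their median log2 difference from LPS was 0.048 for LOC1 and 0.16 for LOC3, and the first turned to -0.0043 under quantile normalization. Maff, a small Maf protein, read 621 for LPS, 1081 for LOC1 and 923 for LOC3, a difference of 0.91 and 0.68. Batf2, an interferon-induced partner of Jun proteins, had 10829, 15741 and 15921, a difference of 0.65 and 0.66. Batf3, known for its role in dendritic cells, was at 0.64 and 0.44. Atf7 was at -0.63 and -0.28 by its brightest probe, but its detected probes reached 0.062 and 0.24.

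Of 15 names for other immediate early genes, 14 were on the array, where Ccn1 is listed under its older symbol Cyr61. With LOC1, 1 of 14 tested was past 2-fold higher and 1 lower, and with LOC3, 1 was higher and none was lower. Over all genes tested, 2.49% were higher and 3.81% lower with LOC1, and 3.00% and 3.18% with LOC3. The median difference was -0.23 with LOC1 and -0.018 with LOC3, and the latter turned to 0.18 under median scaling. Nr4a1, an orphan nuclear receptor induced by inflammatory stimuli, read 1627 for LPS, 3107 for LOC1 and 3269 for LOC3, a log2 difference of 1.05 and 1.11. Arc, an immediate early gene best known in neurons, had 7954, 3035 and 4957, a difference of -1.28 and -0.58. These were the members of the list past 2-fold, and under median scaling 2 genes were higher with each strain. Klf4, a zinc finger factor of monocyte differentiation, was at 0.80 and 0.85, and Ier3, an NF-kB target that acts on cell survival, was at -0.86 and -0.75.

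Of 4 partners and relatives of the Egr genes, 3 were on the array and none was past 2-fold. Egr4, the remaining Egr gene, read 836 for LPS, 556 for LOC1 and 527 for LOC3. Its difference of -0.48 and -0.56 lay on the side of Egr2 and not of Egr1. Nab2, a corepressor that Egr proteins induce and bind, was at 0.46 and 0.35 by its brightest probe and at 1.19 and 0.95 by another, so the size differed between its probes. Wt1 was near the background on all arrays.

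Of 23 upstream MAP kinases and SRF-TCF factors, all on the array and tested, none was past 2-fold with either strain. The median difference was -0.072 with LOC1 and -0.11 with LOC3, and both turned positive under median scaling, at 0.15 and 0.091. By the mean of both strains, the 4 genes furthest from 0 were below LPS. Rps6ka3, which encodes the ERK-activated kinase RSK2, was at -0.87 and -0.82, Srf was at -0.63 and -0.48, and Map3k8, the kinase TPL2 that couples TLR4 to ERK, was at -0.63 and -0.47. Rps6ka5, which encodes the kinase MSK1, was at -0.48 and -0.71. Of the 4 detected probes of Rps6ka3, the least affected was at -0.17 with LOC1. Other detected probes passed 2-fold with LOC1, 1 of Map3k8 at -1.14 and 1 of Map2k3, a p38 kinase activator named after its values were seen, at -1.20.

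Of 12 textbook targets of AP-1 or Egr, 11 were tested. With LOC1, 1 was past 2-fold higher and 1 lower, and with LOC3, none was higher and 1 was lower. The shares over all genes tested were 2.49% and 3.81% with LOC1, and 3.00% and 3.18% with LOC3. With normexp no gene of the list was past 2-fold with either strain, so the F3 calls given below were lost. The median difference was -0.17 with LOC1 and -0.13 with LOC3, and both turned positive under median scaling, at 0.046 and 0.068. F3, which encodes tissue factor, read 113 for LPS, 43.2 for LOC1 and 45.3 for LOC3, a difference of -1.28 and -1.22. Vegfa was named because it was the only higher call of the list and after its values were seen. With LOC1 it was 2.26-fold higher after scaling, over an LPS signal of 19.0 that was itself not well above background. Another of its probes was lower. Ccnd1, which encodes cyclin D1, was at 0.93 and 0.79. Timp1, an inhibitor of metalloproteinases, was at -0.36 and -0.62. The reference transcripts Actb and Gapdh were at 0.035 and 0.26 with LOC1 and at 0.082 and 0.31 with LOC3.

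**Figure D4:**
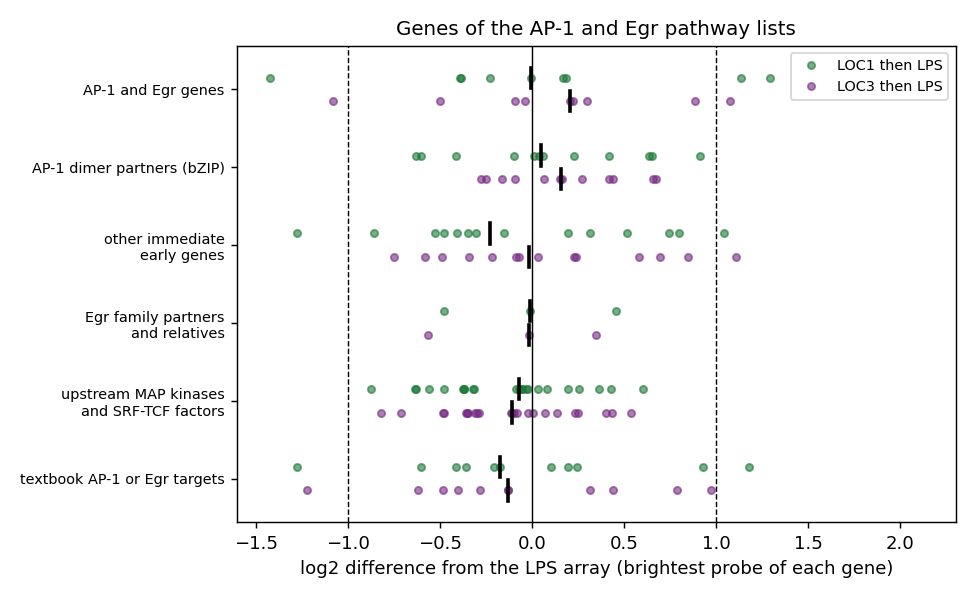
Each point is the log2 difference of 1 gene from the LPS array by its brightest probe, for the AP-1 and Egr genes and for each list, and black bars are medians. Dashed lines mark 2-fold. The medians lie between -0.23 and 0.21, and most genes of each list lie inside 2-fold.

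The genes whose 3 levels followed those of Egr1 most closely were found by Euclidean distance between log2 levels centred on each gene's own mean, among the 17404 other genes detected on each of the 3 arrays. The 5 nearest were Gm36738, an unnamed region of chromosome 10, Glrp1, Amotl2 and Tmem40, at distances of 0.0044 to 0.030 on the log2 scale. Glrp1 read 2925 for LPS, 5871 for LOC1 and 4997 for LOC3. Amotl2 read 149, 306 and 257. With 3 arrays many genes share such a pattern, and nothing on function or control follows from it.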

How the data were processed

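RNA from RAW264.7 macrophages was measured on 1-colour Agilent mouse arrays, 1 per condition. The authors deposited the signal intensity of each spot, background-subtracted by Feature Extraction 12.0.3.1 per the file headers, and log2 ratios to unchallenged macrophages made in GeneSpring 13.1, blank under 2-fold. From these, log2 intensity less the array's 75th percentile over all non-control spots was compared between arrays. Outlier spots, 118 to 135 per array, were left out. A gene was its brightest probe and was tested if well above background on 1 of the 2 arrays, with a dim signal raised to the lowest signal well above background. The threshold was 2-fold. Blank ratios were rebuilt from the implied reference, which differed between columns by over 0.001 for 0 probes. Python 3.11.15, numpy 2.4.6, pandas 2.3.3 and, for normexp with an offset of 50, limma 3.58.1 in R 4.3.3 were used, and the steps were tested on simulated data. Genes named beyond the 10 members were the up to 4 of each list furthest from LPS on average and detected on all arrays, Egr4, Actb, Gapdh and the 5 genes nearest to Egr1, and some of these are not reported here. Wt1, Vegfa, Map2k3 and cell type markers were named in addition. The members and lists were chosen with earlier results of these data known. The alternatives were other scalings, normexp, the deposited ratios, other filters, probes and thresholds, and outlier spots kept. The number of arrays limits the precision.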

Additional observations from a re-analysis of the deposited data

Results flagged for a closer look

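Fosb lay on opposite sides of LPS with the strains, at -0.0059 on the log2 scale with LOC1 and 0.30 with LOC3. The difference was not tested, since there is 1 array per condition. Both values were within the scanner software's error of 0.33 and 0.34, and with LOC1 the sign turned under median scaling, at 0.21.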

How the results depend on the processing

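No paired analysis was possible because each condition has 1 array, and for the same reason no replicate could be left out. With LOC1, 3 members were past 2-fold, and 2 or 3 were under the alternatives other than a 3-fold threshold, which left 0. Counting every probe on its own gave 4 probes with LOC1 and 3 with LOC3, since Fosl2 has 2 probes. With LOC3, 2 members were past 2-fold, and 1 was with normexp and 1 with the deposited ratios, where Fosl2 is blank. A 3-fold threshold left 0 there too. Between LOC1 and LOC3 the count was 0 under every alternative run, and against unchallenged macrophages it was 7, or 5 past 3-fold. Both of these counts include Egr3 by its deposited ratio. Its LPS signal was not well above background, and its bound was only at least 2.12-fold. Of 256 recomputed member differences, 248 kept their sign and 252 their side of 2-fold. Part of this was fixed in advance. The other filters and the keeping of outlier spots could not move these values, since each probe used was detected on all 3 arrays and none was an outlier. The mean of detected probes could not move a gene with 1 detected probe. The cause of the changes was not tested. Over all genes, the calls with LOC1 were 1263, and 420 with normexp and 3847 with no filter and no floor. With LOC3 they were 1225, and 407, 3798 and, well above background on both arrays, 712. Between the strains they were 517, and 150, 2825 and 105. The 75th percentile with each probe counted once was chosen after seeing the data, and gave 3, 2 and 0 members in the 3 comparisons. Dim signals, such as those of Fosl1, Fosb and Egr2, have the larger technical error, and Egr3 was too dim for a difference.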
